A study of Danio rerio with 12 samples.

Results

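The genes described here were clearly expressed in the regenerating zebrafish caudal fin 4 days after amputation and close to silent in the uninjured fin. They are the rows of the mRNA table whose mean deposited value, log2(CPM + 1), was at least 4 over the 3 libraries at 4 days post-amputation (dpa) and under 1 over the 3 libraries at 0 dpa, where CPM is the number of reads per 1000000 and is scaled to a library size that the authors had adjusted. These limits lie at 15 CPM and 1 CPM. Of 16951 genes, 7384 passed the 4 dpa limit, 965 passed the 0 dpa limit and 27 passed both. The genes and2, enam and dact2 were left aside by identifier, no collagen or hox gene passed both limits, and 24 genes remained. Since they were selected on these very values, the difference between the days is given for them as a description with no test.

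All fins came from adult fish of the Ekkwill line. At 4 dpa, 3 strand-specific polyA+ mRNA libraries were of tissue regenerating after removal of about 50% of the caudal fin. At 0 dpa, 3 such libraries were of uninjured tissue. Each library held RNA pooled from 5 to 8 fins, so the spread given is that between pools. The libraries held 17928712 to 24557820 reads at 4 dpa and 20839447 to 25223147 reads at 0 dpa. The 6 small RNA libraries of the series were not used here.

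A cut fin closes its wound with epidermis and then gathers a blastema, a mass of dividing cells under that epidermis, as rays, skin and vessels regrow. The growing tip lays down matrix typical of growth: actinotrichia, the stiff fibrils that support the fin edge, a new basement membrane between epidermis and mesenchyme, and the matrix on which new bone forms. Signals between cells, among them secreted hormones and the ligands of vessel receptors, accompany this growth.

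In a single 4 dpa library the 24 genes had between 216 and 11887 reads, and in a single 0 dpa library none had more than 25. Together they took 0.168, 0.153 and 0.167% of all reads in the 4 dpa libraries, against 0.00101, 0.000983 and 0.00103% in the 0 dpa libraries. Mean CPM was 20.3 to 2782 times higher at 4 dpa among the 23 genes with any read at 0 dpa, with a median of 60.9. In such bulk tissue, fewer cells of a type and less RNA per cell cannot be told apart.

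**Figure D1:**
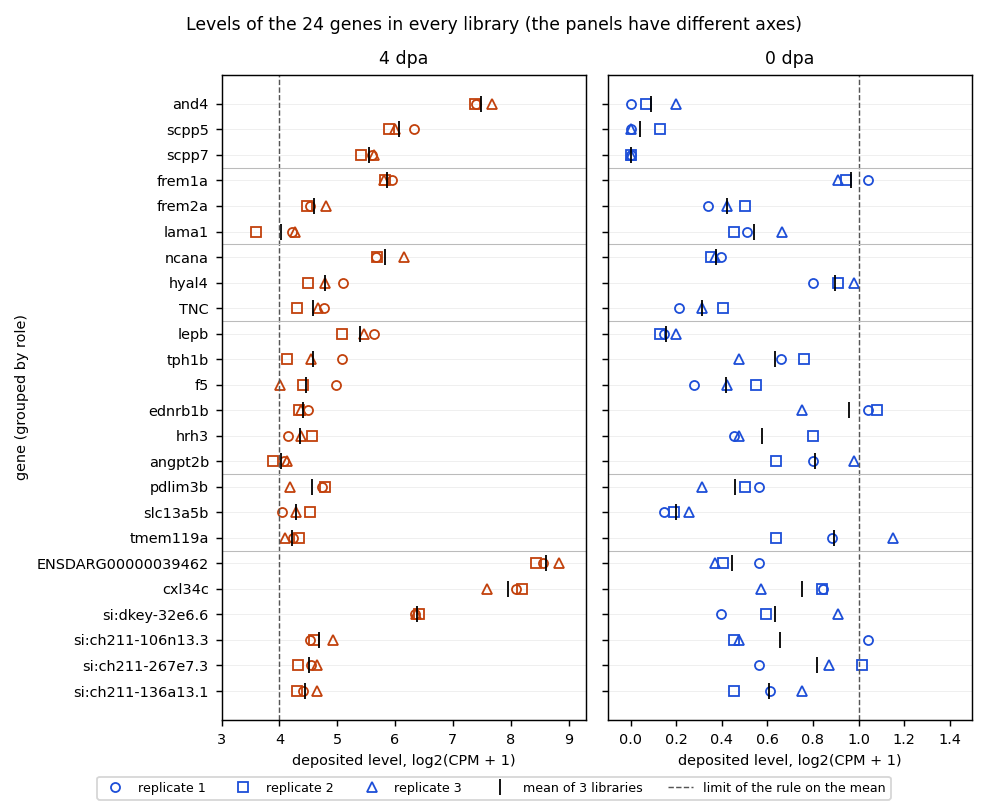
Level of each gene, log2(CPM + 1) as deposited, in the 3 libraries at 4 dpa (left) and the 3 at 0 dpa (right); symbols mark replicates, black ticks the means, and dashed lines the limits of 4 and 1 that chose the genes. The panels have different axes, and single libraries of lama1 and angpt2b at 4 dpa and of frem1a, ednrb1b, tmem119a, si:ch211-106n13.3 and ENSDARG00000075487 (shown by its clone name) at 0 dpa lay beyond the limit that their mean met.

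Matrix of the fin edge and of mineralized surfaces was represented by 3 genes. Actinodins are the proteins of the actinotrichia. The actinodin gene and4 had 4519, 3196 and 5323 reads at 4 dpa, against 0, 1 and 3 reads at 0 dpa. This was 179 ± 22.0 CPM at 4 dpa and 0.064 ± 0.075 CPM at 0 dpa (SD, n = 3 each). With reads pooled over the libraries of each day, the ratio for and4 was 2741, with a 95% interval of 1070 to 10060 that covers counting error only, and it is wide because 4 reads set the 0 dpa level.

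The secretory calcium-binding phosphoproteins (SCPPs) are matrix proteins of teeth, scales and bone, many of them made where mineral is deposited. For scpp5, 2153, 1129 and 1632 reads were counted at 4 dpa, against 0, 2 and 0 at 0 dpa, and the pooled ratio was 2066 (95% interval 572 to 17063). For scpp7, the counts were 1289, 806 and 1268 reads at 4 dpa, against 0, 0 and 0 at 0 dpa. It was the only one of the 24 genes with no read in any 0 dpa library, and its CPM was at least 943-fold higher at 4 dpa, taking 3 reads over the 0 dpa group as the floor. In CPM, scpp7 stood at 45.9 ± 3.76 and scpp5 at 66.8 ± 11.2 at 4 dpa (SD, n = 3).

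Basement membrane genes formed the next group, with 3 genes that were present at low but countable levels before injury. Frem1 and Frem2 proteins sit with Fras1 in a complex under the epidermis that anchors it to the dermis, and zebrafish mutants of this complex form blisters in the fin. Reads of frem1a numbered 1639, 1074 and 1429 at 4 dpa, against 20, 20 and 18 at 0 dpa, so that mean CPM was 56.9 ± 3.13 at 4 dpa and 0.954 ± 0.093 at 0 dpa (SD, n = 3 each), a ratio of 59.7. This gene varied little among the libraries of either day. Reads of frem2a numbered 598, 410 and 702 at 4 dpa, against 5, 9 and 7 at 0 dpa, a ratio of mean CPM of 68.6. The laminin alpha 1 chain, encoded by lama1, is part of the laminin trimer laid down early in a new basement membrane. Its counts were 475, 216 and 479 reads at 4 dpa, against 8, 8 and 12 reads at 0 dpa, with a ratio of 34.1. Replicate 2 stood apart for lama1, at 11.2 CPM beside 17.5 and 18.4 CPM in the other 4 dpa libraries.

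A further 3 genes were named for a proteoglycan, a tenascin and a hyaluronidase. Neurocan is a chondroitin sulfate proteoglycan that binds hyaluronan and is known mainly from the nervous system of mammals. For ncana, 1344, 983 and 1822 reads were counted at 4 dpa, against 6, 6 and 6 at 0 dpa, and mean CPM was 192 times higher at 4 dpa. The gene ENSDARG00000078362 carries the human-style name TNC in the name table and no name beyond a clone in the study's annotation. Tenascin-C, the protein of that name, is a matrix glycoprotein of growing and healing tissue. It had 709, 364 and 633 reads at 4 dpa, against 3, 7 and 5 at 0 dpa, a ratio of mean CPM of 95.2. Hyaluronidases of the HYAL4 type act in mammals mainly on chondroitin sulfate. Reads of hyal4 were 904, 415 and 692 at 4 dpa, against 14, 19 and 20 at 0 dpa, and its ratio of mean CPM was 31.3.

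Signals, their enzymes and their receptors, counted together with a clotting factor, made up 6 of the 24 genes. Leptin b, a secreted hormone of the cytokine kind, had the largest ratio among them. Its gene lepb had 1315, 637 and 1120 reads at 4 dpa, against 2, 2 and 3 reads at 0 dpa. Mean CPM of lepb was 41.5 ± 7.92 at 4 dpa and 0.115 ± 0.028 at 0 dpa (SD, n = 3 each), and the pooled ratio was 369 (95% interval 179 to 919). Angiopoietin 2, a ligand of the Tie receptors on endothelial cells, takes part in remodelling of vessels. The copy angpt2b had 431, 268 and 430 reads at 4 dpa, against 14, 12 and 20 at 0 dpa, a ratio of 20.4.

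Among the receptors, ednrb1b encodes an endothelin receptor of the B type, known for its part in pigment cells. It had 587, 373 and 514 reads at 4 dpa, against 20, 24 and 14 at 0 dpa, and its CPM at 4 dpa varied little, at 20.2 ± 1.28 (SD, n = 3). The histamine receptor gene hrh3, whose product is known chiefly from neurons in mammals, had 453, 441 and 512 reads at 4 dpa, against 7, 16 and 8 at 0 dpa. Their ratios of mean CPM were 21.3 for ednrb1b and 39.4 for hrh3.

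Tryptophan hydroxylase is the rate-limiting enzyme of serotonin synthesis. For its gene tph1b, 893, 322 and 581 reads were counted at 4 dpa, against 11, 15 and 8 at 0 dpa. Coagulation factor V is a cofactor in the clotting cascade made mainly by liver in mammals. For f5, the counts were 824, 391 and 394 reads at 4 dpa, against 4, 10 and 7 at 0 dpa. Both genes were highest in 4 dpa replicate 1 and spread widely there, with tph1b at 33.0, 16.6 and 22.3 CPM and f5 at 30.4, 20.2 and 15.1 CPM. Their ratios of mean CPM were 43.1 for tph1b and 64.6 for f5.

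A carrier, a cytoskeletal protein and a membrane protein formed a small mixed group. The plasma membrane carrier encoded by slc13a5b takes up citrate with sodium. It had 419, 427 and 483 reads at 4 dpa, against 2, 3 and 4 at 0 dpa, and a ratio of mean CPM of 127. PDZ and LIM domain protein 3 binds alpha-actinin and is known from the Z-discs of muscle. Its gene pdlim3b had 695, 513 and 446 reads at 4 dpa, against 9, 9 and 5 at 0 dpa, a ratio of 60.9. Skeletal muscle markers, 2 genes, summed to 5.91 to 7.85 CPM at 4 dpa and 2.85 to 6.34 CPM at 0 dpa, and their part in this was not tested. TMEM119 is known in mammals as a membrane protein of osteoblasts and of microglia. The fish gene tmem119a had 483, 371 and 421 reads at 4 dpa, against 16, 12 and 25 at 0 dpa, and the smallest ratio of the 24 genes, 20.3.

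The last 6 genes have no settled name or role in the sources used here. ENSDARG00000039462, an uncharacterized gene named only for its clone, had 10222, 6708 and 11887 reads at 4 dpa, against 9, 7 and 6 at 0 dpa. Its share of the reads of all 24 genes was 24.8, 24.4 and 29.8% in the 4 dpa libraries, and its mean CPM was 393 ± 56.2 at 4 dpa and 0.364 ± 0.098 at 0 dpa (SD, n = 3 each). The ratio was 1079. The gene called cxl34c in the name table and si:ch211-125g7.3 in the study's annotation had 7339, 5628 and 4995 reads at 4 dpa, against 15, 17 and 10 at 0 dpa, a ratio of 364. The lowest 4 dpa library for cxl34c was replicate 3, at 191 CPM beside 271 and 291 CPM.

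Of the clone-named genes, si:dkey-32e6.6 had 2172, 1623 and 2126 reads at 4 dpa, against 6, 11 and 18 at 0 dpa. At 4 dpa it was the steadiest of the 24, at 81.8 ± 1.85 CPM (SD, n = 3). The gene si:ch211-106n13.3 had 596, 447 and 772 reads at 4 dpa, against 20, 8 and 8 at 0 dpa. For ENSDARG00000075487, which has a clone name like the others, there were 602, 370 and 630 reads at 4 dpa, against 9, 22 and 17 at 0 dpa. For si:ch211-136a13.1 the counts were 545, 362 and 629 reads at 4 dpa, against 10, 8 and 14 at 0 dpa. The ratios of mean CPM of these 4 genes ran from 28.2 to 144.

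**Figure D2:**
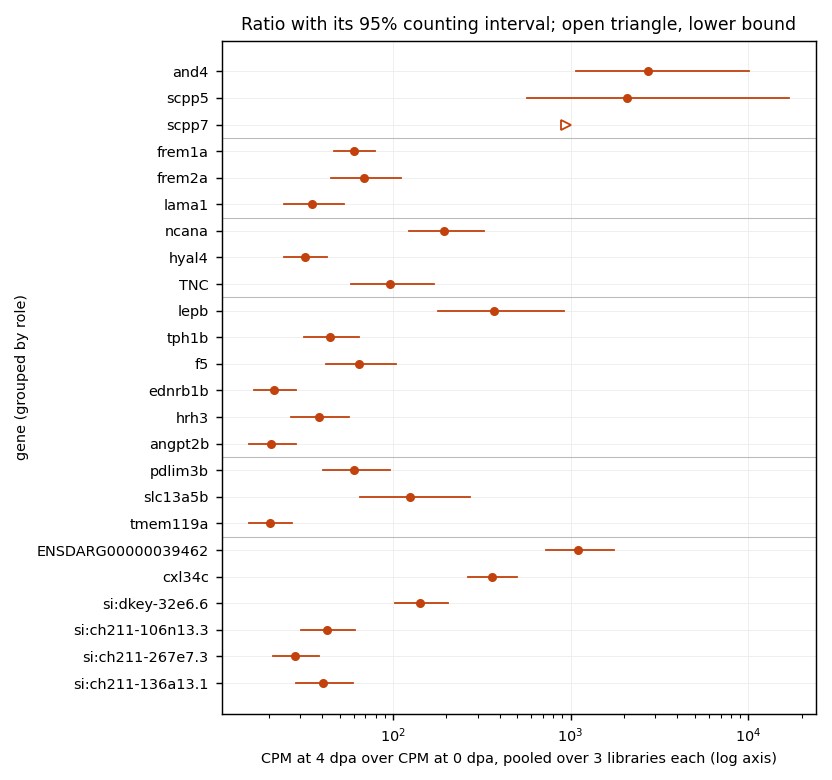
Ratio of CPM at 4 dpa to CPM at 0 dpa for each gene, with reads pooled over the 3 libraries of each day, on a log axis; bars are exact 95% counting intervals and the open triangle of scpp7 is a lower bound of 943. Intervals widen where the 0 dpa reads are few, as for and4 (4 reads) and scpp5 (2 reads), and the smallest ratio is 20.2 for tmem119a.

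Silence at 0 dpa was seldom complete. Only scpp7 had no read there, 4 of the 24 genes had 3 or fewer reads in every 0 dpa library, and 17 had 5 or more reads in every one. Over the 3 libraries of 0 dpa together, the 24 genes had a median of 29.5 reads and at most 58. The table itself shaped which low genes could be seen, because each of its 16951 genes had at least 1 CPM of total reads in 2 or more of the 6 libraries. Of the 965 genes under the 0 dpa limit, 825 had a mean level of at least 1 at 4 dpa, 203 at least 2, 70 at least 3 and 27 at least 4.

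With the days exchanged, 3 genes met the same limits, and they were looked up after the count was known. They were mbpa, which encodes a myelin basic protein, the cartilage collagen gene col9a3, and zgc:113337. In mbpa, 12, 12 and 9 reads were counted at 4 dpa, against 363, 493 and 446 at 0 dpa.

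**Figure D3:**
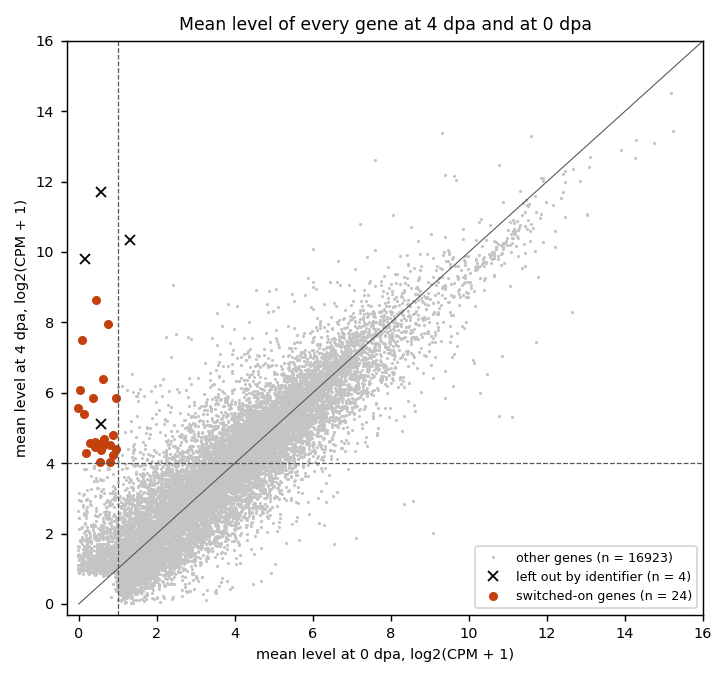
Mean level of each of 16951 genes at 4 dpa (vertical) and at 0 dpa (horizontal), both as log2(CPM + 1) after a small shift per library; dashed lines mark the limits of 4 and 1, crosses the genes left out by identifier, and the solid line equal levels. The 24 genes fill the upper left corner by construction, where the only others are genes left out by identifier.

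Several genes lay just beyond a limit. Nearest below the 4 dpa limit were IGSF3 with a mean level of 3.96, slc1a4 with 3.92, hapln1b and sall1b with 3.84 and the clone-named BX957353.1 with 3.84. Nearest above the 0 dpa limit were tcf7 with 1.02, fbn2b with 1.02, nid2a with 1.11, nell3 with 1.13 and dachc with 1.199. Just inside, lama1 and angpt2b had 4 dpa levels of 4.03 and tmem119a of 4.22, while frem1a, ednrb1b and hyal4 had 0 dpa levels of 0.97, 0.96 and 0.90. The actinodin gene and1, also left aside by identifier, had a 0 dpa level of 1.32 and did not meet that limit.

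Each library was left out of the rule in turn and then read on its own. This reading is not fully separate, because the library left out may have helped set the adjusted sizes and the rows of the table. Most genes of each set were also among the 24. Chosen without 4 dpa replicates 1, 2 and 3 in turn, the sets held 23, 26 and 22 genes, of which 23, 22 and 22 were at or over 4 in the library left out. Chosen without 0 dpa replicates 1, 2 and 3, they held 24, 24 and 25 genes, of which 21, 21 and 22 were under 1 in that library. Levels in the library left out were never below 3.54 at 4 dpa nor above 1.49 at 0 dpa.

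Among the 4 dpa libraries the 24 genes had a wider median spread than genes of similar level. The SD of the level over the 3 libraries had a median of 0.216 for the 24 genes and 0.113 for all 7384 genes over the 4 dpa limit. In the narrow band of levels from 4 to 5, the median SD was 0.221 for 15 of the genes and 0.117 for all 2946 genes. In 6 of the 24 (25%) the highest 4 dpa library was at least 1.5 times the lowest, against 4.55% of the genes over the limit. These were lama1, hyal4, tph1b, f5, pdlim3b and cxl34c. A spread of that size was also seen outside the 24. Among other genes much higher at 4 dpa, the SD was 0.308 for tnc (ENSDARG00000021948), 0.307 for nid2a and 0.268 for fras1. It was smaller for mfap2, at 0.087, and for dkk3b and lox, at 0.041 each. The spread was not tested, and these values describe 3 libraries.

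The direction of that spread differed between genes. Replicate 2 was the lowest 4 dpa library for 14 of the 24 genes (it was lowest for 41.9% of all genes over the limit), among them all 3 genes of the fin edge and mineral matrix, while replicates 1 and 3 were lowest for 5 each. It was also the library with the fewest reads, 17928712 in all. The genes pdlim3b, slc13a5b, hrh3 and tmem119a instead had their highest CPM in that library, as did cxl34c and si:dkey-32e6.6.

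**Figure D4:**
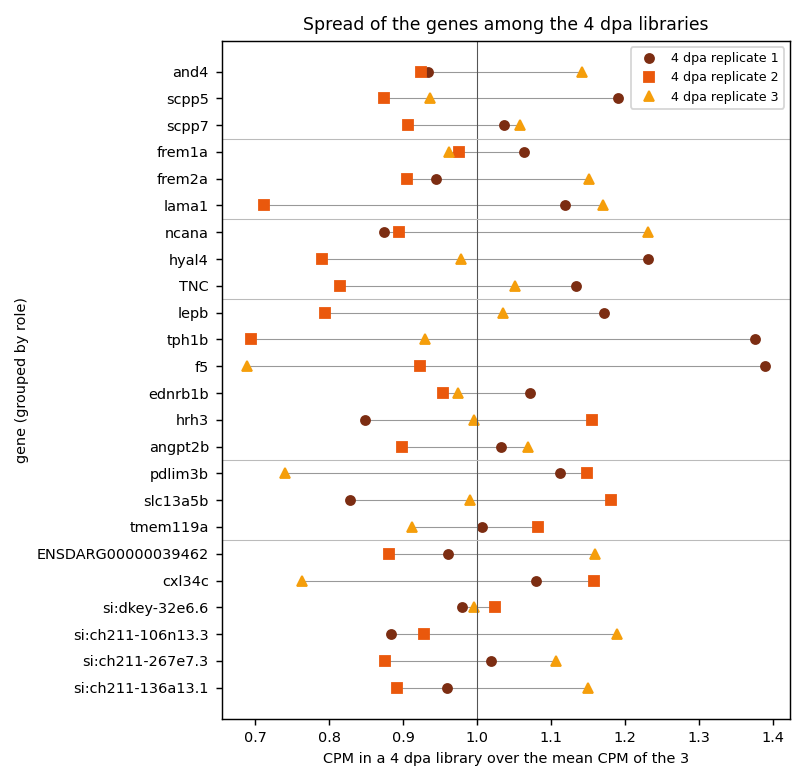
CPM of each gene in each 4 dpa library divided by its mean over the 3, with a line from lowest to highest; genes are grouped by role. The widest lines are those of f5 and tph1b, both highest in replicate 1, and the narrowest is that of si:dkey-32e6.6.

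The other measured genes of 13 pathway lists, 11 of which held at least 1 of the 24 genes, were counted as partners. The counts came from a limma fit of 4 dpa against 0 dpa over all 16951 genes, at a Benjamini-Hochberg adjusted p under 0.05. In that fit 31.0% of all genes were higher and 31.2% lower at 4 dpa, and the median log2 fold-change was -0.01. Of 116 partners, 67 (57.8%) were higher, 16 (13.8%) lower and 33 not called, with a median log2 fold-change of 0.73. They included 19 microfibril genes (8 higher, 2 lower) and 19 Wnt and Tcf genes (13 higher, 2 lower), whose lists held none of the 24 genes. Also counted were slc1a4, hapln1b, tcf7 and nid2a, which lay just beyond a limit of the rule and were all higher. Values scaled to total reads in place of the adjusted sizes moved the median of all genes to 0.24 and turned the split of all genes to 7518 higher and 3595 lower, beside 5251 higher and 5281 lower, with 74 partners higher and 11 lower. The lists were written with earlier results of these data known, and these counts are a description. Log2 fold-changes are on the log2(CPM + 1) scale, which understates the change of genes with few reads. This was followed in 62 named genes outside the 24: partners, copies and neighbours, with mbpa and col9a3. Of these, 15 had a value over 1.5 times larger with a pseudocount of 0.25 or with limma-voom on the recovered reads. For each of the 15, the limma-voom value or a ratio of pooled reads is given.

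The matrix lists of the switched-on genes moved mostly one way. The remaining actinodin gene, and3, which was named after its value was seen, had 33, 40 and 48 reads at 4 dpa, against 1, 4 and 5 at 0 dpa, and was higher by a log2 fold-change of 1.23 ± 0.16 (SE, adjusted p = 0.000257; 3.33 with limma-voom). All 5 other SCPP and bone matrix genes were higher, with a median of 1.86. Among them scpp1 had 1012, 1076 and 1066 reads at 4 dpa, against 31, 102 and 81 at 0 dpa (log2 fold-change 3.43 ± 0.28, adjusted p = 2.28e-05), and scpp6 had 225, 145 and 194 reads, against 3, 3 and 1 at 0 dpa (2.99 ± 0.12, adjusted p = 8.61e-07, and 5.90 with limma-voom). The bone phosphoprotein gene spp1 was higher by 1.82 ± 0.15 (adjusted p = 2.19e-05) and scpp8 by 1.86 ± 0.18 (adjusted p = 6.4e-05, and 2.94 with limma-voom).

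All 8 other genes of the Fras1 and Frem list were higher at 4 dpa, with a median log2 fold-change of 2.26. The gene fras1 itself had 2702, 1593 and 3098 reads at 4 dpa, against 214, 228 and 202 at 0 dpa, and rose by 3.13 ± 0.14 (SE, adjusted p = 1.26e-06). Its relative frem3, with 342, 214 and 418 reads at 4 dpa against 3, 3 and 1 at 0 dpa, rose by 3.68 ± 0.15 (adjusted p = 1.03e-06, and 6.67 with limma-voom). The integrin gene itga8 rose by 2.51 ± 0.14 (adjusted p = 4.03e-06) and the hemicentin gene hmcn2 (ENSDARG00000086060) by 2.26 ± 0.17 (adjusted p = 1.67e-05, and 4.92 with limma-voom). The second copy of frem1 was already expressed before injury: frem1b had 388, 399 and 562 reads at 4 dpa, against 188, 301 and 284 at 0 dpa. Its log2 fold-change was 0.56 ± 0.18 (adjusted p = 0.0273), and the call was lost without 0 dpa replicate 1 (adjusted p = 0.065), without 4 dpa replicate 2 (0.0866) or without 4 dpa replicate 3 (0.0981).

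Laminins and other basement membrane genes gave 11 higher, 1 lower and 2 not called of 14, with a median log2 fold-change of 1.15. Nidogen 2a, a linker of the basement membrane, lay just beyond the 0 dpa limit: nid2a had 1739, 1230 and 2400 reads at 4 dpa, against 22, 25 and 24 at 0 dpa (log2 fold-change 5.10 ± 0.16, adjusted p = 2.81e-07). The laminin chain genes lama5 and lamc1 rose by 2.86 ± 0.15 (adjusted p = 2.73e-06) and 2.15 ± 0.12 (adjusted p = 3.49e-06), and nid1a by 2.64 ± 0.13 (adjusted p = 2.32e-06). The one gene that fell, named after its value was seen, was lamb1b, with -1.36 ± 0.11 (adjusted p = 2.09e-05).

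Of 12 further genes for proteoglycans, tenascins and hyaluronan, 8 were higher, 1 lower and 3 not called, with a median of 1.44. The other copy named for tenascin-C, tnc (ENSDARG00000021948), was already expressed at 0 dpa, and its log2 fold-change was the largest of the 116 partners on the log2(CPM + 1) scale, though not with limma-voom, where ednrab had 7.57 and tnc 6.93. It had 14547, 8264 and 16932 reads at 4 dpa, against 80, 85 and 100 at 0 dpa (6.66 ± 0.16, adjusted p = 6.92e-08). The hyaluronan synthase genes has2 and HAS1 rose by 1.92 ± 0.18 (adjusted p = 4.92e-05) and 1.65 ± 0.26 (adjusted p = 0.000786). The hyaluronidase gene hyal2 (ENSDARG00000062997) rose by 1.75 ± 0.15 (adjusted p = 2.76e-05), and hapln1b, whose product links hyaluronan to proteoglycans, by 3.09 ± 0.17 (adjusted p = 2.96e-06). The hyaluronan receptor gene cd44a, named after its value was seen, was the one lower gene, with -0.48 ± 0.09 (adjusted p = 0.00174), a call lost when values were scaled to total reads.

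**Figure D5:**
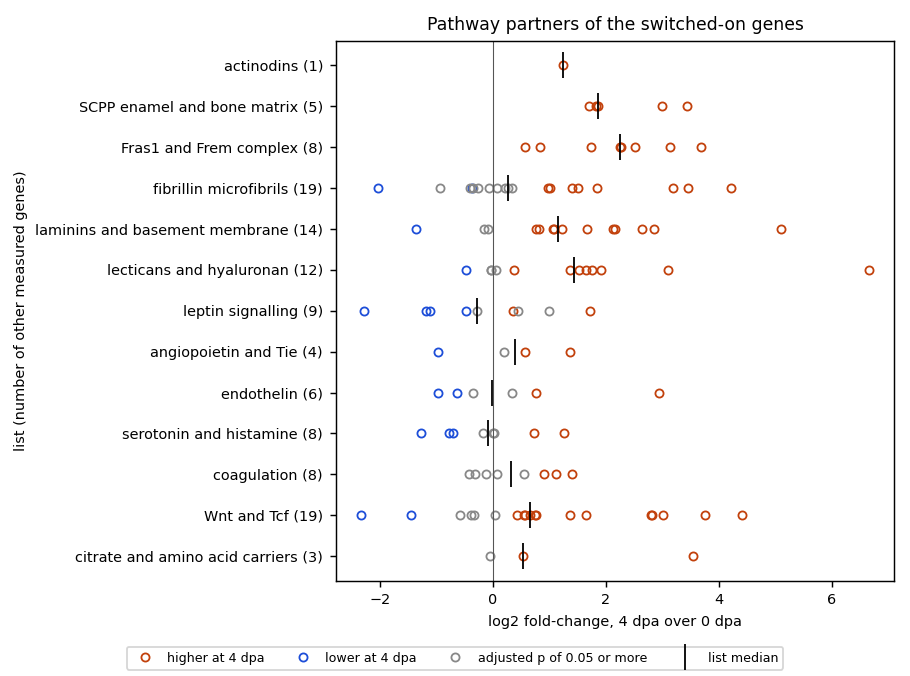
Log2 fold-change, 4 dpa over 0 dpa, of each partner gene in the 13 lists; colour gives the limma call at an adjusted p under 0.05, black ticks the list medians, and the number of partners is in brackets. All partners in the actinodin (1 gene), SCPP and Fras1 and Frem lists are higher, while every other list, matrix or signalling, holds genes on both sides of 0.

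The signalling lists held genes called in both directions, as did the whole fit, where 31.0% of all genes were higher and 31.2% lower. In the leptin list, 2 partners were higher, 4 lower and 3 not called, with a median of -0.29. Leptin receptors act through Janus kinases and are held back by SOCS proteins. The SOCS gene socs1a had 608, 461 and 420 reads at 4 dpa, against 1555, 2521 and 2469 at 0 dpa, and fell by 2.28 on the log2 scale (SE 0.18, adjusted p = 2.05e-05), and socs1b fell by 1.19 (SE 0.27, adjusted p = 0.00513). JAK2 fell by 0.48 (SE 0.11, adjusted p = 0.00426), a call lost when values were scaled to total reads (adjusted p = 0.141). SOCS3 (ENSDARG00000025428) had -1.11 ± 0.35 (adjusted p = 0.024) with overlapping libraries, 5478, 3456 and 5920 reads at 4 dpa against 4241, 13756 and 12294 at 0 dpa. That call was lost when values were scaled to total reads (adjusted p = 0.0602) and without 0 dpa replicate 2 (0.0743), 0 dpa replicate 3 (0.0871), 4 dpa replicate 1 (0.0565) or 4 dpa replicate 2 (0.075). The second SOCS3 copy (ENSDARG00000026611) was not called, with 0.99 ± 0.59 (adjusted p = 0.176).

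The receptor that leptin b would bind was expressed on both days, unlike lepb itself. The gene lepr, named here after its value was seen, had 955, 833 and 1285 reads at 4 dpa, against 565, 727 and 744 at 0 dpa. Its log2 fold-change was 0.35 ± 0.14 with an adjusted p of 0.0495 from limma, the libraries of the days overlapped, and the call was lost without any 1 of 0 dpa replicates 1, 2 and 3 or 4 dpa replicates 2 and 3 (adjusted p 0.0532 to 0.161), and with no further scaling (0.0593), quantile normalization (0.0718) or limma-voom (0.0624). The other higher gene of the list was the cytokine gene il11a, also named after its value was seen. It had 49, 43 and 88 reads at 4 dpa, against 0, 3 and 0 at 0 dpa, a pooled ratio of 50.4 (95% counting interval 16.99 to 246.92).

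Of 4 angiopoietin and Tie partners, 2 were higher, 1 lower and 1 not called. The second angiopoietin 2 copy, ANGPT2 (ENSDARG00000014946), had 77, 74 and 79 reads at 4 dpa, against 8, 22 and 12 at 0 dpa (log2 fold-change 1.36 ± 0.17, adjusted p = 0.00019, and 2.25 with limma-voom). The receptor gene TIE1 rose by 0.57 ± 0.13 (adjusted p = 0.00476), and ptprb, which encodes a phosphatase of endothelial cells, fell by 0.96 (SE 0.12, adjusted p = 0.000173). Endothelial markers, 4 genes with TIE1 among them, summed to 43.1 to 51.2 CPM at 4 dpa and 27.9 to 39.2 CPM at 0 dpa. Of these 4, 2 were higher and 0 lower, while KDR and pecam1a were not called. The part of the markers in these differences was not tested.

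The endothelin list gave 2 higher, 2 lower and 2 not called of 6, and it split between receptor copies. The other EDNRB copy (ENSDARG00000089334) had 566, 624 and 507 reads at 4 dpa, against 824, 1110 and 1016 at 0 dpa, and fell by 0.98 (SE 0.18, adjusted p = 0.00163) although the rule chose ednrb1b for being higher. The A-type receptor gene ednrab had 184, 117 and 190 reads at 4 dpa, against 0, 1 and 0 at 0 dpa. Its pooled ratio was 413, with a 95% counting interval of 73.8 to 16339, and its 4 dpa level of 2.95 kept it below the limit that chose the 24 genes. The other A-type gene EDNRA (ENSDARG00000011876) rose by 0.76 ± 0.12 (adjusted p = 0.00079), and the ligand gene edn1 fell by 0.64 (SE 0.14, adjusted p = 0.00357, and by 0.97 with limma-voom).

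In the serotonin and histamine list, 2 of 8 partners were higher, 3 lower and 3 not called. The enzyme that breaks down serotonin, encoded by mao, had 224, 163 and 175 reads at 4 dpa, against 316, 585 and 390 at 0 dpa, and fell by 1.28 (SE 0.18, adjusted p = 0.000369). The serotonin transporter gene SLC6A4 (ENSDARG00000061165) fell by 0.78 (SE 0.12, adjusted p = 0.000755). Pterin synthesis, which supplies the cofactor of tryptophan hydroxylase, begins with GCH1, and GCH1 (ENSDARG00000070453) had -0.70 ± 0.21 (adjusted p = 0.0177). The GCH1 call was lost without 4 dpa replicate 1 (adjusted p = 0.0567) and when values were scaled to total reads (0.115). The gene aanat2, for an enzyme that acts on serotonin toward melatonin, rose by 0.73 ± 0.16 (adjusted p = 0.00477), and the histamine methyltransferase gene HNMT, named after its value was seen, by 1.25 ± 0.14 (adjusted p = 0.00014, and 2.84 with limma-voom).

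Coagulation partners of f5 gave 3 higher, 0 lower and 5 not called of 8. The transglutaminase gene f13a1b had 3589, 2654 and 3930 reads at 4 dpa, against 941, 1220 and 1090 at 0 dpa (log2 fold-change 1.40 ± 0.09, adjusted p = 6.97e-06). The inhibitor gene tfpia rose by 1.12 ± 0.09 (adjusted p = 1.78e-05), and FGB (ENSDARG00000008969), chosen after its value was seen, by 0.91 ± 0.16 (adjusted p = 0.00121, and 2.45 with limma-voom). The list for citrate and amino acid carriers holds slc13a5b, and none of its 3 partners is another citrate carrier gene. Among them slc1a4 rose by 3.54 ± 0.18 (adjusted p = 2.57e-06, and 5.49 with limma-voom). It lay just below the 4 dpa limit of the rule, and the list was written with earlier results known, so this rise is a description only. In the same list slc3a2a rose by 0.54 ± 0.12 (adjusted p = 0.00477), and 1 partner of 3 was not called.

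No switched-on gene belongs to the remaining lists, for fibrillin microfibrils and for Wnt signalling with the Tcf factors. Of 19 microfibril genes, 8 were higher, 2 lower and 9 not called. The list was matched by name alone, and most of those not called were its copies named MFAP4, mfap4.4 and mfap4.8. None of these copies was called, and whether they belong to microfibrils was not examined. Among these 19, the largest changes were those of mfap2 (4.22 ± 0.13, adjusted p = 3.04e-07), efemp2a (3.45 ± 0.14, adjusted p = 8.98e-07) and lox (3.19 ± 0.14, adjusted p = 1.05e-06), while EFEMP1 (ENSDARG00000059121) fell by 2.04 (SE 0.17, adjusted p = 3.13e-05). The fibrillin gene fbn2b is not among them, because only the study's annotation names it. Named here after its value was seen, fbn2b had 1761, 1235 and 2177 reads at 4 dpa, against 8, 39 and 22 at 0 dpa. Its log2 fold-change was 5.16 ± 0.23 (adjusted p = 1.32e-06). The fibrillin gene in the list, FBN2 (ENSDARG00000051896), also named after its value was seen, rose by 1.01 ± 0.17 (adjusted p = 0.00117). The second lower gene, mfap5, had an adjusted p of 0.0456 with overlapping libraries and lost its call when values were scaled to total reads, and without 0 dpa replicate 2 or 3 or 4 dpa replicate 1 or 3 (adjusted p 0.117 to 0.149). Of 19 Wnt and Tcf genes, 13 were higher, 2 lower and 4 not called. The largest rises on the log2(CPM + 1) scale were those of dkk3b (4.40 ± 0.10, adjusted p = 6.11e-08), lef1 (3.75 ± 0.14, adjusted p = 6.24e-07), tcf7 (3.01 ± 0.14, adjusted p = 1.46e-06) and dkk1b (2.81 ± 0.26, adjusted p = 4.75e-05, and 4.88 with limma-voom), and the lower genes, named after their values were seen, were wif1 (-2.33 ± 0.11, adjusted p = 1.68e-06) and dkk2 (-1.44 ± 0.20, adjusted p = 0.000404, and -3.24 with limma-voom).

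Copies that share the stem of a switched-on gene's name were found for 5 of the 24 in the name table, 4 of them higher and 1 lower at 4 dpa. They were the copies of tenascin-C, angpt2b, frem1a and tmem119a, and the lower one was that of ednrb1b. The gene tmem119b, named after its value was seen, had 1175, 774 and 1193 reads at 4 dpa, against 154, 214 and 220 at 0 dpa (log2 fold-change 2.08 ± 0.12, adjusted p = 3.9e-06). A copy named only in the study's annotation, which covers few of the genes, was frem2b, also picked after its value was seen. It had 8852, 4939 and 9072 reads at 4 dpa, against 228, 205 and 215 at 0 dpa (4.75 ± 0.14, adjusted p = 2.41e-07), so it was expressed before injury where frem2a had 5 to 9 reads. How reads shared by near-identical copies were counted is not given in the sources used here, and it may affect the values of such copies.

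By symbol, 21 of the 24 genes could be placed in RefSeq's GRCz12tu assembly, which was used only for the order of genes. The 2 SCPP genes are direct neighbours, in the order enam, scpp5, scpp7 and then ambn, the gene listed here as scpp6. The enamel matrix gene enam, which was left aside by identifier, also met both limits. No other pair of the 21 placed genes lay within 3 genes of each other. Within 3 protein-coding genes on each side of the placed genes, 126 neighbours were listed, and 38 other genes among them were measured. Of these 38, 18 (47.4%) were higher, 5 lower and 15 not called, with a median log2 fold-change of 0.28. Over all genes of the fit, 31.0% were higher and 31.2% lower, with a median of -0.005, and the difference was not tested. The hyaluronidase gene SPAM1, next to hyal4, was higher by 1.24 ± 0.15 (adjusted p = 0.000182, and 5.24 with limma-voom), and ccdc80, near f5, by 2.52 ± 0.15 (adjusted p = 4.46e-06). These neighbours were named after their values were seen.

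Marker lists for cell division and for cell types of the fin were summed in each library. Cell division markers summed to 714 to 772 CPM at 4 dpa and 282 to 303 CPM at 0 dpa, and all 8 were higher. Osteoblast markers summed to 6095 to 6837 CPM at 4 dpa and 251 to 339 CPM at 0 dpa, with 3 of 5 higher and 1 lower. Most of that sum came from col10a1, and the other 4 summed to 227 to 275 CPM at 4 dpa and 98.9 to 119 CPM at 0 dpa. Epidermal markers summed to 29784 to 35029 CPM at 4 dpa and 45411 to 53240 CPM at 0 dpa, with 1 of 6 higher and 2 lower. The keratin gene krt5 made up most of this epidermal sum and was lower, as was krt4, while krt8 was higher. Neutrophil and macrophage markers summed to 379 to 449 CPM at 4 dpa and 541 to 838 CPM at 0 dpa, with 1 of 8 higher and 5 lower. The higher gene was mmp13a, with 1732, 1018 and 1588 reads at 4 dpa, against 51, 41 and 21 at 0 dpa. The study lists mmp13 with extracellular matrix genes, and mmp13a raised the 4 dpa sums. Of the 2 muscle genes tnnt3b was higher and ckma lower. Red blood cell markers, 2 genes, summed to 1.6 to 13 CPM at 4 dpa and 3.65 to 9.94 CPM at 0 dpa. The part of these shifts in the 24 genes was not tested.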

How the data were processed

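Strand-specific polyA+ mRNA libraries of caudal fins, 3 at 4 dpa and 3 at 0 dpa as labelled, were used. The authors deposited log2 values for 16951 Ensembl genes (version 76). These were log2(CPM + 1), with CPM per adjusted library size (1.08 to 1.10 times the total reads at 4 dpa, 0.855 to 0.908 times at 0 dpa). Whole reads were recovered in 100% of values (tolerance 0.05 reads), and totals ran from 17928712 to 25223147 reads. The submitters' processing notes name Zv9, Trimmomatic, edgeR and RSEM, while the aligner and counter of the zebrafish reads are not given in the sources used here.

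The 24 genes were found by the rule in the report. Members and lists were chosen with earlier results of these data known. Ratios are of CPM, with exact binomial 95% intervals (SciPy 1.17.1). Each library's log2 values were centred on the mean library with a trimmed mean of their log ratios (30% of ratios and 5% of levels dropped at each end) and fitted with limma 3.58.1 (R 4.3.3; lmFit, eBayes with trend), with Benjamini-Hochberg adjustment over all genes. The fit was also run on reads simulated from the mean levels in these libraries, where 193 of 200 changed genes were recovered and 20 unchanged genes were called. Every simulated gene had the same added spread and few genes changed. The simulation therefore cannot show how the fit performs here, where most genes were called. Named are all 24 genes, copies sharing a stem in the lists, up to 4 other called genes per list with the largest absolute fold-change and a mean level of at least 1, and the 5 genes nearest each limit outside it. The name table matched 13664 genes. The study's annotation, at hand for 1675 rows, was used to name members, the genes nearest the limits and the copies frem2b and fbn2b, and added no gene to the lists. The gene f8a was removed from the coagulation list, having matched by letters alone. P-values set the difference between the days against the spread between pools of fins. Alternatives covered scaling, a filter, the pseudocount, a replicate block, limma-voom on recovered reads, limits, and leaving out libraries. Plots used Matplotlib 3.10.9, other work Python 3.11.15, pandas 2.3.3 and NumPy 2.4.6.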

Additional observations from a re-analysis of the deposited data

How the results depend on the processing

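The number of genes that met the rule was 24 with values shifted by the trimmed mean, 28 with values scaled to total reads (fbn2b, slc1a4, tcf7 and IGSF3 joined), and 17 when every library had to pass its limit. It was 11 with a 0 dpa limit of 0.5, 9 with a 4 dpa limit of 5, and 22 to 26 when 1 library was left out. Across alternatives the fit called 9100 to 11113 genes, beside 10532, and 78 to 89 partners, beside 83. A replicate block gave 10486 genes and 89 partners (69 higher, 20 lower). Deviations of same-numbered libraries had correlations of 0.17, -0.01 and 0.15 over 4305 genes. Differently numbered libraries were not compared, so pairing was not settled. Of 62 named genes outside the 24 (partners, copies and neighbours, with mbpa and col9a3), 55 kept direction and call under every alternative run. Among their values 25 lost the call and 0 reversed. At 0 dpa, depth limits ratios of genes with few reads. Planned protein and promoter features were not analysed here.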
